A study of Mus musculus with 13 samples.

Results

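The BCL2 family genes Bcl2, Bcl2l1, Mcl1, Bcl2l11, Bmf, Bax, Bak1, Bid, Bbc3 and Pmaip1 were examined in EPLMs, early bone marrow progenitors that can still give lymphoid or myeloid cells and are sorted by surface markers that include B220, c-kit and CD93. The 10 genes were taken by name, and every probe set to which the platform annotation gives one of these symbols alone was kept, 30 of 45037 probe sets on the Affymetrix mouse GeneChip. These 30 probe sets cover 9 of the 10 genes. No probe set is listed for Bax, which is not analysed here. WT EPLMs came from 3 mice and BCS EPLMs from 3 mice, with 1 mouse per array. All were 7 weeks old, of the B6CF1 x C57BL/6 cross, and littermates carrying or lacking the transgene. BCS mice carry a human OBF1 cDNA with an HA tag, encoding the nuclear p34 isoform, under the Eμ enhancer and a VH promoter, which is active in B lineage cells from an early stage and also in thymocytes. OBF1 is a coactivator of Oct1 and Oct2. The study obtained several transgenic lines, and the line used for the arrays is not given in the sources used here. The series also holds arrays of large preB cells, whose columns were left out because the intensities there do not match their row names.

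The BCL2 family sets whether the outer membrane of the mitochondrion stays intact. Its pro-survival proteins, among them BCL2, BCL-XL (encoded by Bcl2l1) and MCL1, hold in check the effectors BAK (Bak1) and BAX, which open the membrane and release cytochrome c. The BH3-only proteins, among them BIM (Bcl2l11), BMF, BID, PUMA (Bbc3) and NOXA (Pmaip1), report stress or loss of growth factor by binding the pro-survival proteins, and some of them also activate BAK and BAX. In developing lymphocytes, cytokine signals such as IL-7 keep the pro-survival side high, and BIM is a main executor when they are withdrawn.

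Of the 9 measured members, Bcl2 was the only gene with probe sets that passed the test, and it fell in BCS EPLMs by more than 2-fold on 4 of its 5 probe sets. Among the 30 probe sets, 4 fell and none rose at an adjusted p under 0.05 from limma (Benjamini-Hochberg over all probe sets), which is 13.3% called. Among all 45037 probe sets 5.49% were called, 2.24% higher and 3.25% lower. Leaving out probe sets below the array median on all 6 arrays, 4 of 24 members were called (16.7%) beside 9.62% of the 24959 that remain. Since the 4 probe sets read 1 gene, they are not 4 independent events, and by the brightest probe set of each gene 1 of 9 genes was called (11.1%) beside 7.83% of 18193 genes, 3.15% higher and 4.68% lower. At an unadjusted p under 0.05, 9 of the 30 probe sets passed with limma beside 18.4% of all probe sets, and 6 with the methods' t-test beside 15.7%. Of the 30 probe sets, 1 of Bcl2 passed after adjustment with the methods' t-test. The median log2 change was 0.00 over the 30 probe sets and 0.01 over all probe sets. Intensities are linear GCRMA values, and the medians of the 6 arrays lie between 20.002 and 20.003. Changes are on the scale of log2(intensity + 1), which understates the change of dim probe sets, and the standard error (SE) is limma's. Intensities of different probe sets are not compared with each other, because probe sets bind with different efficiency.

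Because Bcl2 is the member that fell, the annotated promoter of Bcl2 is shown here (250 bases before to 50 after the start site, RefSeq, build GRCm38.p6, chr1:106714241-106714540, minus strand), with each CG dinucleotide in capitals.
Bcl2 promoter: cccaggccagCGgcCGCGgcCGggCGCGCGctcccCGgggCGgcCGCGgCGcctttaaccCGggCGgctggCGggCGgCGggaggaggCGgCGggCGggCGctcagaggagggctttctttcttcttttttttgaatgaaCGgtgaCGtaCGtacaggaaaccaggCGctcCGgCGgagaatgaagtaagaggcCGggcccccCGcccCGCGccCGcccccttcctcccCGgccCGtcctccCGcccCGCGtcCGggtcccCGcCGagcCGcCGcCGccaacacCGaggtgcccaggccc
It holds 44 CG dinucleotides, and the median over 32851 promoters of the same length is 7. The octamer to which Oct1 and Oct2 recruit OBF1 (ATGCAAAT, searched on both strands, reverse ATTTGCAT) is not in this window, exactly or with 1 mismatch. The same holds for all 16 promoter windows of the 9 members looked up, which include that of Bax and leave out Pmaip1. Over all promoters 1.74% hold an exact match and 18.6% a match with up to 1 mismatch. These shares are not matched for base composition. G and C make up 76.0% of the Bcl2 window and 49.3% to 78.0% of the member windows, beside a median of 52.7% over all promoters. The search covers these 300 bases and says nothing about more distant sites.

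Among the pro-survival genes, Bcl2 was measured by 5 probe sets. On the brightest, 1457687_at, the intensities were 5046, 4560 and 5196 in the 3 WT mice and 2425, 2052 and 2331 in the 3 BCS mice. Every BCS mouse lay below every WT mouse, and the range within a genotype was small beside the gap. The mean went from 4934 ± 333 (SD, n = 3) to 2270 ± 194 (SD, n = 3), which is 2.18-fold lower (log2 change -1.12, SE 0.10, adjusted p = 0.000369 from limma). In the order of log2 changes over 18193 genes it is the fall of rank 432.

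The other Bcl2 probe sets went the same way. On 1440770_at the WT intensities were 4034, 2186 and 2581 and the BCS intensities 1102, 1072 and 1631, a log2 change of -1.19 (SE 0.24, adjusted p = 0.0225 from limma). On 1437122_at they were 1158, 963 and 1220 in WT and 433, 360 and 450 in BCS mice, a log2 change of -1.42 (SE 0.16, adjusted p = 0.0011 from limma). On 1443837_x_at, whose suffix marks probes that may also bind other transcripts, they were 492, 349 and 477 in WT and 134, 118 and 206 in BCS mice, a log2 change of -1.54 (SE 0.24, adjusted p = 0.00717 from limma). In all of these the genotypes did not overlap. The dimmest probe set, 1422938_at, went from 63.7, 47.4 and 54.4 to 34.8, 35.8 and 27.7 without overlap and did not pass (log2 change -0.73, SE 0.19, adjusted p = 0.0572 from limma). It did pass without the intensity trend in the variance, with the filter on dim probe sets and with array weights (adjusted p = 0.0388, 0.0355 and 0.0498 from limma). The 95% intervals of the 5 changes overlap, with that of the brightest from -1.35 to -0.89 and that of 1443837_x_at from -2.10 to -0.99. The call on the brightest probe set held in all 16 alternative fits (adjusted p from 0.000172 to 0.04996 from limma or the methods' t-test). The call on 1440770_at was lost without WT replicate 3, BCS replicate 1 or BCS replicate 2 (adjusted p = 0.0585, 0.0708 and 0.0886 from limma), without the intensity trend (0.0529) and with the methods' t-test (0.233).

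**Figure D1:**
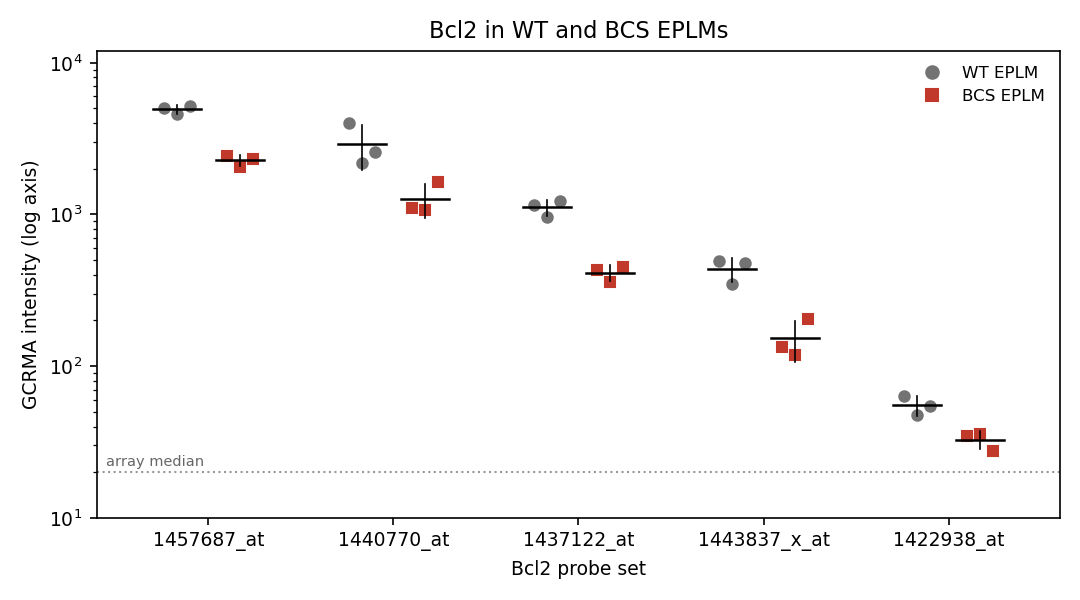
GCRMA intensity (log axis) of the 5 Bcl2 probe sets in EPLMs, with 1 point per mouse (gray circles for 3 WT, red squares for 3 BCS), bars at the means, vertical lines of 1 SD on each side and a dotted line at the array median. On 1457687_at the BCS range of 2052 to 2425 lies wholly under the WT range of 4560 to 5196.

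RNA of bulk sorted cells cannot tell fewer cells of a type from less RNA per cell, and the EPLMs of both genotypes differed in markers of other cell types. Among all genes 7.83% were called with limma, 3.15% higher and 4.68% lower, and 22.9% had an unadjusted p under 0.05. Among the 11 plasmacytoid dendritic cell markers with a probe set, 8 fell and none rose with limma (72.7% called, 9 with an unadjusted p under 0.05). Their summed intensity was 87557 to 95715 in WT and 42637 to 56501 in BCS mice. Without Irf8, the brightest, it was 47564 to 56045 in WT and 19211 to 27233 in BCS mice. The 8 that fell were Siglech, Bst2, Ccr9, Irf8, Tcf4, Cox6a2, Pacsin1 and Cd209d, with log2 changes from -3.37 (Pacsin1) to -0.60 (Irf8). Of the 3 that did not pass, Spib went the other way (0.25, adjusted p = 0.309 from limma), with all BCS mice above all WT mice. Tlr7 had a log2 change of -0.73 and Tlr9, close to the array median, one of -0.18. None of the 11 lay below the array median on all 6 arrays. Of 11 B lineage markers 7 rose (Cd79b, Vpreb1, Vpreb3, Igll1, Ebf1, Pax5 and Rag1, 63.6% called), and all 11 had log2 changes above 0. Their summed intensity was 67418 to 94252 in WT and 124340 to 136737 in BCS mice, and without Igll1, the brightest, 60135 to 75435 and 95117 to 105666. Of 10 NK cell markers Klrd1 and Klrk1 fell and 8 did not pass (20% called), and all 10 had log2 changes below 0. The summed intensity was 8278 to 14986 in WT and 1485 to 4288 in BCS mice. Klrd1 was the brightest of these markers, and without it the genotypes overlapped, with 1377 to 6876 in WT and 398 to 2982 in BCS mice. Of 14 myeloid markers Csf1r alone fell (7.14% called, near the share of all genes), while 13 of the 14 had log2 changes below 0. Their sums were 30304 to 112638 in WT and 11226 to 76271 in BCS mice, and without S100a8, the brightest, 19073 to 78342 and 6931 to 49576. Of 10 erythroid and megakaryocyte markers Car2 rose (10% called, near the share of all genes), while 8 of the 10 had log2 changes below 0. Their sums were 1677 to 7128 in WT and 6004 to 7551 in BCS mice, and without Car2 387 to 4009 and 315 to 369. Of 10 T lineage markers Lat and Thy1 rose and Cd8a fell (30% called), while 7 of the 10 had log2 changes below 0. Their sums were 717 to 1560 in WT and 1981 to 2676 in BCS mice, and without Thy1 they overlapped, with 316 to 661 and 543 to 759. The part of these cell types in the Bcl2 change was not tested. Of the genes of the gate, Ptprc, Kit and Cd93 were far above the array median in every mouse, and Ptprc, whose B form is B220, fell by 0.40 on the log2 scale (SE 0.07, adjusted p = 0.0101 from limma). Pou2af1, the mouse gene of OBF1, rose by 0.99 (SE 0.23, adjusted p = 0.0436 from limma), and whether its probe set also reads the human transgene is not known. The intensities were 6278, 7250 and 3400 in WT and 10784, 10858 and 10323 in BCS mice. By qPCR the paper reports a robust rise of endogenous OBF1 in BCS EPLMs, and no detectable endogenous RNA of it in WT EPLMs. The WT array intensities, from mice without the transgene, lay far above the array median. Array and qPCR thus differ for WT EPLMs, and the reason was not tested. Leaving out WT replicate 1 or any of the 3 BCS replicates ended the Pou2af1 call (adjusted p from 0.0599 to 0.132 from limma). It was also lost without the intensity trend, with robust variances and with the methods' t-test (adjusted p = 0.0962, 0.109 and 0.297), and its medians were less than 2-fold apart.

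The other pro-survival members did not pass. Bcl2l1, which encodes BCL-XL, had 1 probe set above the array median, 1420888_at, with intensities of 73.5, 169 and 120 in WT and 199.9, 206 and 299 in BCS mice. All BCS mice lay above all WT mice, but the WT mice differed among themselves by more than 2-fold. The log2 change of 1.01 (SE 0.30, 95% interval 0.32 to 1.70) did not pass (adjusted p = 0.104 from limma), and leaving out WT replicate 2 made it pass, at 1.29 (adjusted p = 0.0499 from limma), while without WT replicate 1 it was 0.70 (adjusted p = 0.215 from limma). Its other 3 probe sets were below the array median on all 6 arrays, between 8.41 and 12.6, so they carry no readable change. Bcl2l1 makes long and short splice forms of opposite action, and the annotation used here does not say which of them 1420888_at reads.

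Mcl1, whose short-lived protein is needed by lymphoid progenitors, was measured by 6 probe sets. The brightest, 1448503_at, had intensities of 13372, 13942 and 13760 in WT and 14935, 13787 and 15140 in BCS mice. The genotypes overlapped, and the log2 change was 0.09 (SE 0.05, adjusted p = 0.428 from limma), with a 95% interval from -0.03 to 0.22. On the other 5 probe sets the genotypes overlapped too, with log2 changes from -0.03 to 0.29 and adjusted p from 0.33 to 0.997 (limma). The 95% intervals of the 4 brightest Mcl1 probe sets lay within -0.24 and 0.22, so a change of the size seen in Bcl2 lies outside them. Among these 4, all but 1448503_at carry the suffix x_at, which marks probes that may also bind other transcripts. On 1416881_at, the dimmest of the 6, the interval reached 0.60.

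Of the effectors, Bak1 was measured on 1418991_at with intensities of 134, 192 and 155 in WT and 260, 258 and 238 in BCS mice. The genotypes did not overlap. The log2 change of 0.67 (SE 0.18, 95% interval 0.25 to 1.08) did not pass (adjusted p = 0.0804 from limma), and it passed without the intensity trend in the variance (adjusted p = 0.0471 from limma). Its other probe set, 1425716_s_at, lay between 8.78 and 10.4, below the array median in all mice.

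Among the BH3-only genes, Bcl2l11, which encodes BIM, had intensities of 2816, 2719 and 2199 in WT and 2534, 2352 and 2335 in BCS mice on its brightest probe set, 1456005_a_at. The genotypes overlapped, with a log2 change of -0.09 (SE 0.12, 95% interval -0.36 to 0.17, adjusted p = 0.76 from limma). A second well measured probe set, 1435448_at, gave 0.01 (SE 0.13, adjusted p = 0.982 from limma). The 3 dimmer probe sets had log2 changes of 0.31, 0.65 and 0.29 (adjusted p = 0.464, 0.197 and 0.33 from limma). On 1456006_at, the most changed of them, the intensities were 43.1, 30.0 and 38.9 in WT and 82.7, 53.8 and 45.5 in BCS mice, without overlap and within about 4-fold of the array median. The dimmer and the brighter probe sets of Bcl2l11 thus gave different values, and the difference between them was not tested.

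Bmf, whose protein binds the dynein light chain of myosin motors until it is released, was the most variable member in WT mice. On 1454880_s_at the WT intensities were 157, 453 and 215, the high one being WT replicate 2, and the BCS intensities were 85.0, 96.9 and 131. All BCS mice lay below all WT mice, and the mean went from 275 ± 157 (SD, n = 3) to 104 ± 23.7 (SD, n = 3). The log2 change of -1.27 (SE 0.36, 95% interval -2.09 to -0.45) did not pass (adjusted p = 0.0868 from limma). Leaving out WT replicate 1, the lowest WT mouse, made it pass at -1.60 (adjusted p = 0.0408 from limma), and without WT replicate 2, the highest, it was -0.84 (adjusted p = 0.149 from limma). WT replicate 2 was also the highest WT mouse for some markers of other cells. Examples are Prf1 (75.1, 373 and 69.5 in the WT mice), Ltf (1252, 8514 and 1212) and Pf4 (121, 2805 and 80.2). For others, such as Siglech and Klf1, it was not the highest. Whether this bears on Bmf was not tested. At the study's thresholds, an unadjusted p under 0.01 and group medians at least 2-fold apart, Bmf passed with limma beside 4 Bcl2 probe sets, where 2.88% of all probe sets did. With the methods' t-test 3 Bcl2 probe sets met these thresholds, beside 1.92% of all probe sets, and Bmf did not. The other 2 Bmf probe sets were below the array median on all 6 arrays.

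Bid, which is cut by caspase-8 and so links death receptors to the mitochondrion, had WT intensities of 1458, 1453 and 1457 and BCS intensities of 942, 1348 and 1529 on 1417045_at. The WT mice were almost equal and the BCS mice spread to both sides, with BCS replicate 1 the lowest. BCS replicate 1 was also the lowest mouse on 1447873_x_at, with 177 beside 234 and 254 in the other BCS mice and 240 to 272 in WT mice. The log2 changes were -0.22 (SE 0.18, adjusted p = 0.579 from limma) and -0.21 (SE 0.19, adjusted p = 0.64 from limma), and 0.25 (SE 0.22, adjusted p = 0.62 from limma) on the dim 1448560_at.

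Bbc3, which encodes PUMA, had intensities of 24.7, 34.1 and 25.0 in WT and 23.9, 24.01 and 19.99 in BCS mice on its only probe set. These lie close to the array median, and the log2 change of -0.28 (SE 0.17, adjusted p = 0.441 from limma) cannot be read as a measure of the transcript. Pmaip1, which encodes NOXA, had intensities of 221, 247 and 226 in WT and 219, 136 and 174 in BCS mice. The BCS mice lay below the WT mice, though BCS replicate 1 was within 2 units of the lowest WT mouse, and the log2 change was -0.41 (SE 0.20, 95% interval -0.88 to 0.05, adjusted p = 0.336 from limma).

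**Figure D2:**
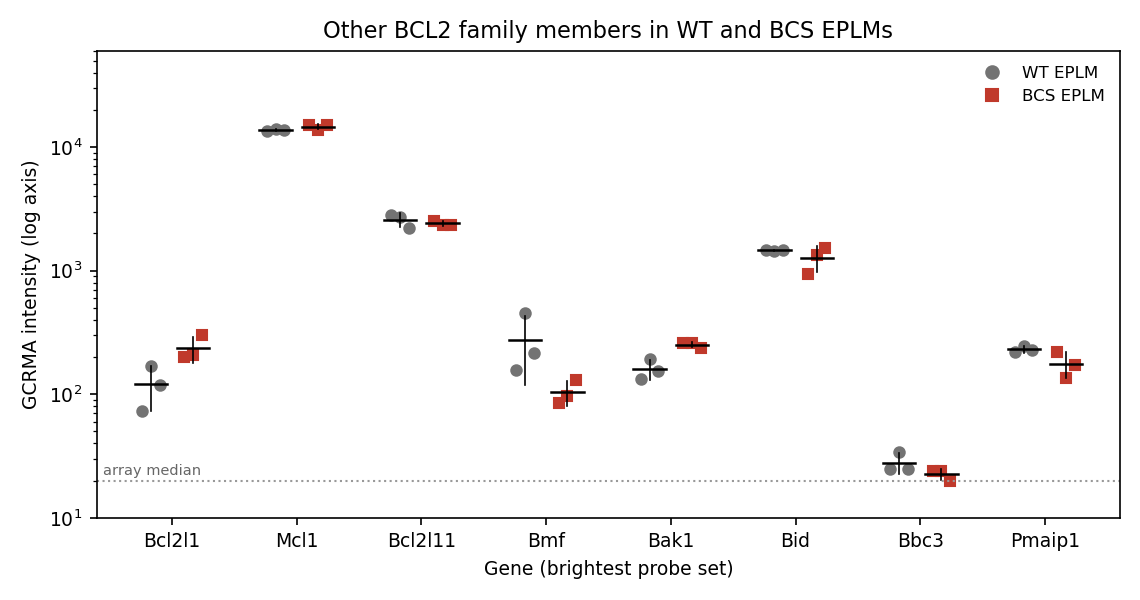
GCRMA intensity (log axis) of the brightest probe set of 8 BCL2 family genes in EPLMs, with 1 point per mouse (gray circles for 3 WT, red squares for 3 BCS), bars at the means, vertical lines of 1 SD on each side and a dotted line at the array median. The genotypes overlap for Mcl1, Bcl2l11 and Bid, and for Bmf the 3 WT mice spread from 157 to 453.

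Seen together, 12 of the 30 probe sets (40%) had genotypes that did not overlap, 4 with all BCS mice higher and 8 with all BCS mice lower, of which 5 were those of Bcl2. Among all probe sets 23.9% did not overlap, 12.6% with all BCS mice higher and 11.2% with all BCS mice lower. The 8 lower ones include Bbc3, which lies close to the array median, and Pmaip1, whose genotypes nearly touched. Of the 24 member probe sets that were not below the array median on all arrays, 12 did not overlap (50%), beside 33.5% of the probe sets with that property. Among the measured members, by role, no pro-survival gene other than Bcl2, no effector and no BH3-only gene was called in either direction. The wide intervals of Bcl2l1, Bmf and Bak1 do not show that these genes were unchanged.

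**Figure D3:**
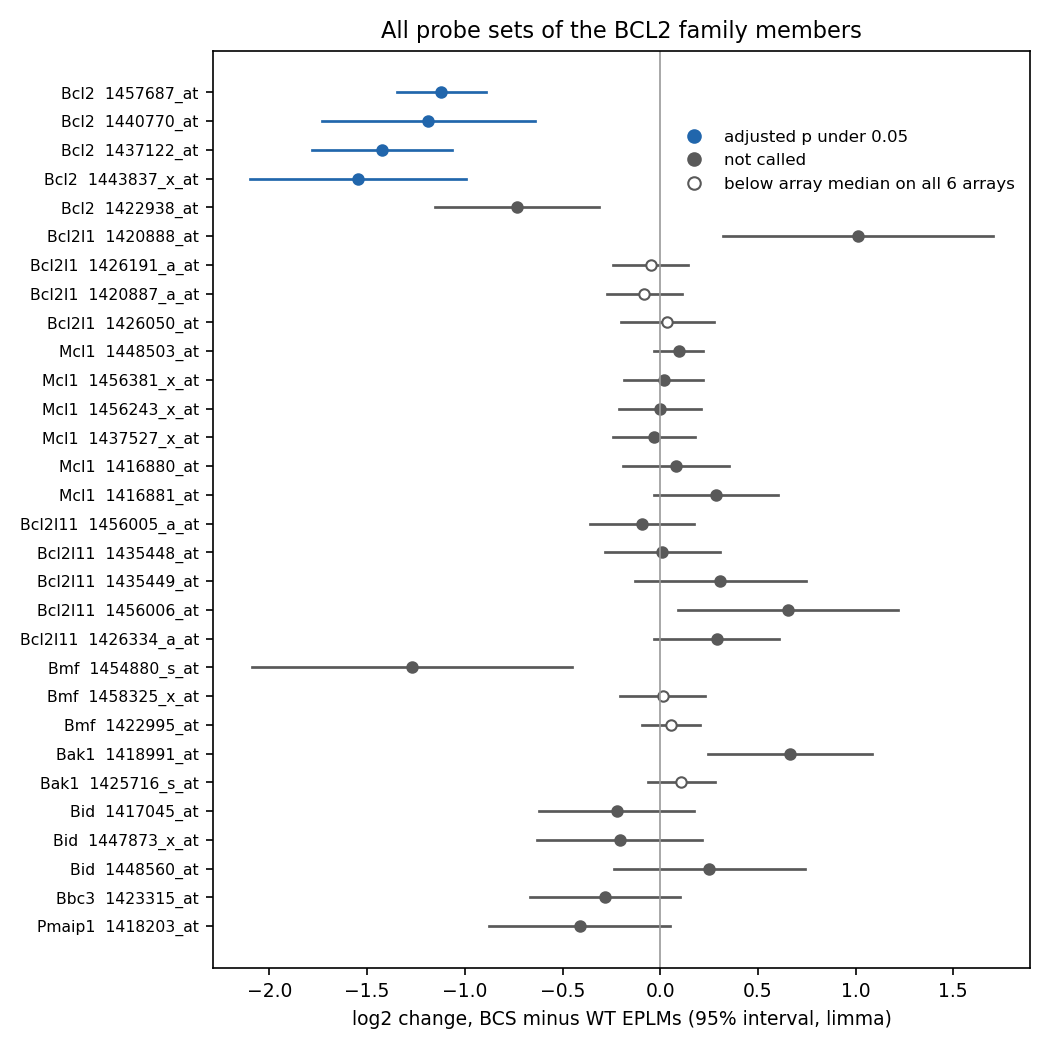
Log2 change between BCS and WT EPLMs of all 30 probe sets of the BCL2 family members, as points with 95% intervals from limma, blue where the adjusted p is under 0.05, gray where it is not and open where all 6 arrays lie below the array median. The 4 blue points are all of Bcl2, from -1.54 to -1.12.

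Further genes of the family were taken from a list of 16, of which 11 have a probe set with 1 symbol and the others are not analysed here. In BCS EPLMs 1 rose, 1 fell and 9 did not pass (18.2% called), beside 7.83% of all genes called, 3.15% higher and 4.68% lower. Bok, a relative of the effectors BAX and BAK, went from 47.5, 50.01 and 44.1 in WT to 259, 365 and 505 in BCS mice on its only probe set. The genotypes lay far apart, with a rise of 7.57-fold (log2 change 2.92, SE 0.25, adjusted p = 0.000276 from limma), rank 24 among the rises of 18193 genes. In WT mice Bok lay only about 2-fold above the median of the array. The Bok change did not pass with the methods' t-test after adjustment (adjusted p = 0.0627). Bnip3, whose protein sits on the mitochondrion and serves in mitophagy and in the response to low oxygen, fell from 1402, 1540 and 1705 to 872, 864 and 964 (log2 change -0.78, SE 0.13, adjusted p = 0.0082 from limma). Bcl2l2 (BCL-W) and the BH3-only genes Bad and Bik had log2 changes of -0.01 (SE 0.24), -0.08 (SE 0.16) and -0.07 (SE 0.16). A second Bad probe set, 1416583_at, went from 310, 263 and 286 in WT to 210, 215 and 224 in BCS mice without overlap. Its log2 change of -0.40 (SE 0.16, 95% interval -0.75 to -0.04) did not pass (adjusted p = 0.212 from limma). Bik lay between 17.5 and 24.7, close to the array median, so its value cannot be read as a measure of the transcript. Bcl2l10, Hrk and Bcl2l15, 3 of the 11 genes, lay below the array median on all 6 arrays, so they carry no readable change. The median log2 change of the 11 genes was 0.09, which is the value of the dim Bcl2l10. Over the brightest probe sets of all genes the median was 0.01.

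Downstream of the mitochondrion, 19 of 21 listed genes of the caspase pathway were measured, of which 1 rose, 1 fell and 17 did not pass, with a median log2 change of 0.02. Htra2, which encodes a mitochondrial protease that blocks inhibitors of caspases once released, rose from 2260, 2227 and 1855 in WT to 3379, 4054 and 3970 in BCS mice (log2 change 0.85, SE 0.12, adjusted p = 0.00371 from limma). Its second probe set rose by 0.89 (SE 0.15, adjusted p = 0.0086 from limma). Casp6, an effector caspase gene, fell from 2217, 2245 and 2329 to 1785, 1546 and 1630 (log2 change -0.46, SE 0.10, adjusted p = 0.0379 from limma). The apoptosome genes Apaf1 and Cycs, which encodes cytochrome c, had log2 changes of 0.01 (SE 0.10) and 0.02 (SE 0.07), and Casp9 one of -0.65 (SE 0.22, adjusted p = 0.146 from limma). Xiap, an inhibitor of caspases, had a log2 change of -0.04 (SE 0.10). The 10.5% of this list that was called compares with 7.83% of all genes.

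Upstream, 27 of 29 listed receptors, kinases, transcription factors and binding partners of the family were measured, of which 3 fell, none rose and 24 did not pass with limma (11.1% called, beside 7.83% of all genes). At an unadjusted p under 0.05, 9 passed with limma beside 22.9% of all genes, and 5 with the methods' t-test beside 20%, of which none passed after adjustment. Flt3, the receptor tyrosine kinase gene of early lymphoid progenitors, fell from 8606, 7629 and 9358 in WT to 3635, 3136 and 4266 in BCS mice (log2 change -1.22, SE 0.12, adjusted p = 0.00065 from limma). Foxo3, a transcription factor that can induce Bcl2l11 and Bbc3, fell by 0.48 on the log2 scale (SE 0.10, adjusted p = 0.028 from limma), and Tmbim6, also called BAX inhibitor 1, fell by 0.43 (SE 0.09, adjusted p = 0.0297 from limma). Il7r, the receptor gene for IL-7, had a log2 change of -0.23 (SE 0.11, adjusted p = 0.328 from limma), and Kit one of -0.01 (SE 0.14, adjusted p = 0.983 from limma). Myc had a log2 change of 0.96 (SE 0.25, adjusted p = 0.0628 from limma) and did not pass. The median log2 change of the 27 genes was -0.05. The calls of Casp6, Foxo3 and Tmbim6 were each lost when any array but BCS replicate 1 was left out (adjusted p from 0.0692 to 0.14 from limma), and without BCS replicate 1 the upstream count was 6 in place of 3.

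**Figure D4:**
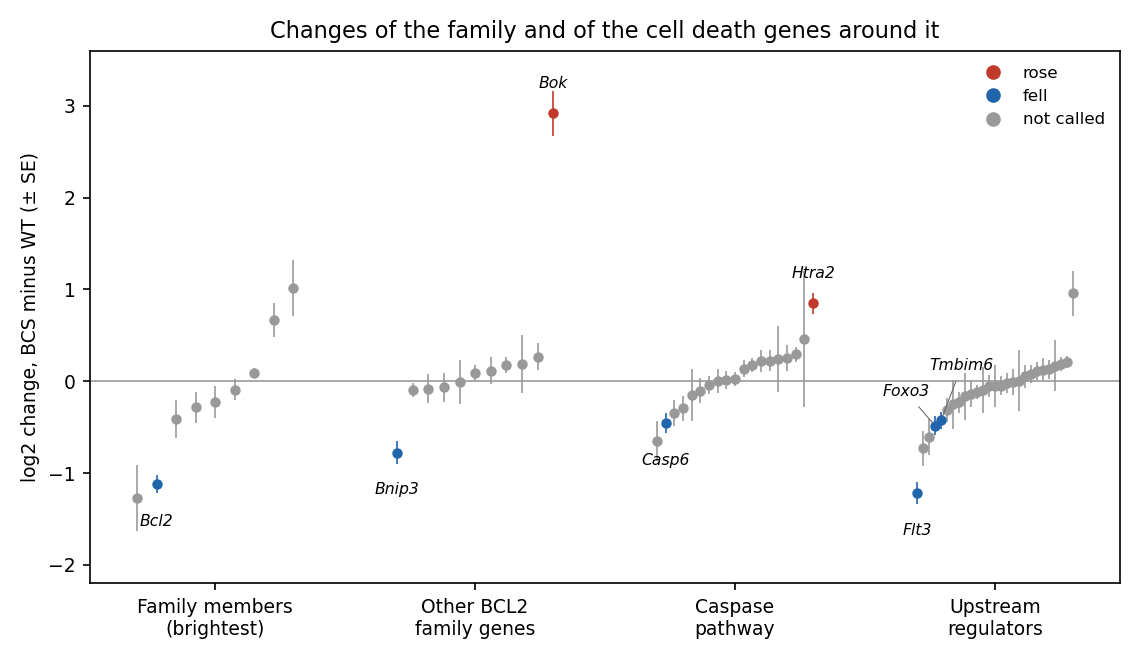
Log2 change between BCS and WT EPLMs (vertical axis, points with 1 SE on each side) of the brightest probe set of each gene, for the 9 measured family members, 11 further family genes, 19 caspase pathway genes and 27 upstream regulators, red where a gene rose, blue where it fell and gray where it was not called. Bok stands at 2.92, and Bcl2, at -1.12, is the only one of the 9 members that was called.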

How the data were processed

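EPLM RNA of single mice was hybridized to Affymetrix mouse GeneChips, and the authors normalized the intensities with GCRMA, whose version is not given in the sources used here. The labels name a labeling protocol of 1 cycle and the paper's methods one of 2. The deposited values are intensities on a linear scale, and the 6 EPLM arrays share nearly one distribution. The 7 columns of large preB arrays were not used. After leaving out 64 control features, limma 3.58.1 (in R 4.3.3) was run on log2(intensity + 1) of 45037 probe sets without covariates, using lmFit and a trended eBayes, with Benjamini-Hochberg adjustment. A gene rose or fell at an adjusted p under 0.05. By the platform annotation 34945 probe sets have 1 symbol, 932 several and 9160 none. A gene of a list is given by its probe set of highest mean. The named genes are all members, Pou2af1, genes of the gate and, of each list, those that passed (up to 8), and others were chosen after their values were seen. The members and lists were chosen with earlier results of these data known. The number of arrays, 3 per genotype, limits the precision. The p-values set each change against the spread between mice, and those of limma also draw on the variances of other probe sets. The methods' t-test and the alternatives of the closing section were also run. The data name no genome build, and only promoter windows carry coordinates.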

Additional observations from a re-analysis of the deposited data

How the results depend on the processing

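No change of sign occurred in any alternative for the brightest probe sets of the members, the other Bcl2 probe sets, Pou2af1 or the list genes that passed. Of 30 member probe sets, the 4 calls became 1 with the methods' t-test, and 3 to 5 when single arrays were left out. The count of member genes called, 1, became 2 without the intensity trend (Bak1 added) and was 1 to 2 when single arrays were left out. Over all probe sets 2472 calls became 267 with the methods' t-test, 1156 with medians at least 2-fold apart, and 1401 to 2241 when single arrays were left out (1430, 1401 and 1591 without WT replicate 3, BCS replicate 2 and BCS replicate 3). With the methods' t-test the 2 calls among further family genes, 2 in the caspase pathway and 3 among upstream regulators all became 0, with 2, 4 and 5 genes at an unadjusted p under 0.05. With medians at least 2-fold apart they became 1, 0 and 1. The caspase pathway count was 1 with the replicate block, 1 with each gene taken by its most variable probe set, and 1 to 2 when single arrays were left out. The upstream count was 5 with the filter on dim probe sets and 1 to 6 when single arrays were left out. The count of further family genes stayed at 2 when single arrays were left out. The causes were not tested, except that the 2-fold rule removes calls by construction.

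The same replicate number in both genotypes marks different mice. Deviations of same-numbered arrays correlated with -0.001, 0.0775 and 0.0686 over 24959 probe sets. Those of differently numbered arrays correlated with -0.19 to 0.113. With 3 arrays per genotype these values cannot show whether same-numbered arrays share a litter or a batch. With the replicate number as a block 1920 probe sets and the same number of member probe sets, 4, were called, and the calls of Casp6 and Foxo3 were lost (adjusted p = 0.0885 and 0.0609 from limma). Quantile normalization over arrays that already share a distribution called 2475 probe sets. Member probe sets near or below the array median, 6 of 30 on all arrays, limit what can be read of Bcl2l1, Bmf and Bak1 transcripts.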
